A study of Rattus norvegicus with 12 samples.

Results

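Metallothioneins are small cysteine-rich proteins that bind zinc and copper in the cytosol, and SLC30A1 (ZnT1) is the plasma membrane transporter that moves zinc out of the cell. The set described here consists of 6 metallothionein genes, MT2A, MT1X, MT1E, MT1F, MT1G and MT1M, together with SLC30A1. They are listed in the tables as ENSG00000125148 (MT2A), ENSG00000187193 (MT1X), ENSG00000169715 (MT1E), ENSG00000198417 (MT1F), ENSG00000125144 (MT1G), ENSG00000205364 (MT1M) and ENSG00000170385 (SLC30A1). These 7 of the 20263 listed genes were taken by identifier, each paired with its symbol in advance, and not by a limit on their values. The set was chosen with earlier results of these data known, so counts of its genes beside all genes are a description.

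The libraries are labelled H9C2, a wild-type line derived from embryonic rat heart that the labels call cardiomyocytes. Each group had 3 biological replicates and was collected after 48 h. HG-Res-SIRT7-Inh cells received 100 mM D-glucose with 5 µM each of resveratrol and SirReal2, which the labels call a SIRT7 inhibitor and which is better known as an inhibitor of SIRT2. HG-Res cells received the same glucose with 5 µM resveratrol alone, a plant polyphenol, HG cells the same glucose with neither compound, and Ctrl cells 5.5 mM D-glucose without any compound. The labels describe no osmotic control, no vehicle and no group given the inhibitor alone, so the inhibitor was never separated from resveratrol. All groups compared below carried high glucose. The Ctrl libraries entered only the table of HG against Ctrl, which lists 354 genes marked by the authors, and 0 of the 7 genes are in it. Their levels in normal glucose were therefore not analysed here.

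In mouse and human cells the zinc-sensing transcription factor MTF1 binds metal response elements in the promoters of metallothionein genes and of SLC30A1, so that a rise in free zinc normally raises both: the metallothioneins buffer the metal and SLC30A1 exports it. Metallothionein genes also respond to cadmium, glucocorticoids, oxidants and inflammatory cytokines. In the heart they are known as scavengers of oxidants, and their overexpression has been studied in diabetic mouse hearts.

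The identifiers carry Ensembl's human prefix in all 20263 rows, although the samples are labelled rat and the submitters' notes name rn6. Of the 7 symbols, 4 matched a rat symbol in RefSeq (GRCr8), namely MT2A, MT1F, SLC30A1 and MT1M, the last a pseudogene. Humans carry a cluster of metallothionein 1 genes beside MT2A, and most of them have no single rat counterpart. The files do not settle whether the reads come from rat or human genes, and no marker of the labelled cell type was checked, because no symbols come with the identifiers of other genes. The MT1 genes are also near-identical in sequence, so the way reads were assigned could split them between paralogs, and the values of single MT1 genes are uncertain for that reason.

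The rat promoters of a metallothionein pair and of the exporter are shown as background. Whether MTF1 or metal response elements have a part in the changes below was not tested. Rat Mt1 is not a member of the set. Whether the reads come from rat or human genes is not settled, so these may not be the promoters of the measured genes. Each stretch is the 250 bases before the RefSeq transcription start, on the gene's strand, 5′ to 3′, with capitals marking matches to the core of the metal response element, TGCACNC or TGCGCNC, on either strand. Mt2A lies at chr19:10838709-10838958 on the minus strand, Mt1 (rat metallothionein 1) at chr19:10832976-10833225 on the minus strand and Slc30a1 at chr13:106021769-106022018 on the plus strand, all in GRCr8.
Mt2A: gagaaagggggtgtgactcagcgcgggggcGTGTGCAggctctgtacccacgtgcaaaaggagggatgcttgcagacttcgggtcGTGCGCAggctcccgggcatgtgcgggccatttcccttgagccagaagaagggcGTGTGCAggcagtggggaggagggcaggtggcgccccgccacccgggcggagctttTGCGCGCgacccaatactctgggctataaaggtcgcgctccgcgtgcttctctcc
Mt1: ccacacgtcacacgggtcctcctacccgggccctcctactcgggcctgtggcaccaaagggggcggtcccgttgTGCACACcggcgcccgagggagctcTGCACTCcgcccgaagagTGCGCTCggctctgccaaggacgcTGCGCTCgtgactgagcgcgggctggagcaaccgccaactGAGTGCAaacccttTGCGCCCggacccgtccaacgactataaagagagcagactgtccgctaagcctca
Slc30a1: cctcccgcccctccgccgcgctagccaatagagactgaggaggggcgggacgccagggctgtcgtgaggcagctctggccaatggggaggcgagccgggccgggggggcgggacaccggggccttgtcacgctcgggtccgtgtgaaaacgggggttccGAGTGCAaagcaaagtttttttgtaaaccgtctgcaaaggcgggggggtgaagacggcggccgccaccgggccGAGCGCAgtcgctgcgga
The Mt2A window held 4 matches, 1 on the gene's strand and 3 on the other. As many were present in 0.266% of the 33469 rat promoter windows of the same length. The Mt1 window held 6 matches, a number reached by 0.0269% of windows, and the Slc30a1 window held 2, reached by 4.90%. At least 1 match was present in 20.6% of all windows. The matches did not overlap each other within these 3 windows. A match is a stretch of letters and not a measured binding site.

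Levels below are in CPM, which corrects for library depth and not for gene length, so that comparisons hold for 1 gene across libraries and not across genes. The depth recovered from the values was 30.28 to 33.17 M reads per library. The replicates of the inhibitor group differed most, with a median SD of 0.242 over genes on the log2 scale in HG-Res-SIRT7-Inh, 0.071 in HG-Res and 0.132 in HG. A pair of libraries stood apart on the first principal component of all genes, HG-Res-SIRT7-Inh replicate 3 at -50.7 and HG replicate 2 at 29.7, with the others between -17.1 and 14.4.

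With the inhibitor present, MT2A, MT1X and MT1E fell in HG-Res-SIRT7-Inh against HG, and MT2A and MT1X fell against HG-Res, by 0.65 to 0.94 on the log2 scale. SLC30A1 had its highest mean in HG-Res-SIRT7-Inh, but its change did not pass the test in either comparison. Genes reaching 0.5 CPM in 3 or more of the 9 libraries with high glucose entered limma on log2(CPM + 1), a scale that understates the change of low genes, with Benjamini-Hochberg adjustment over all 12854 genes. Of the 7 genes 6 passed this filter and MT1G did not.

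**Figure D1:**
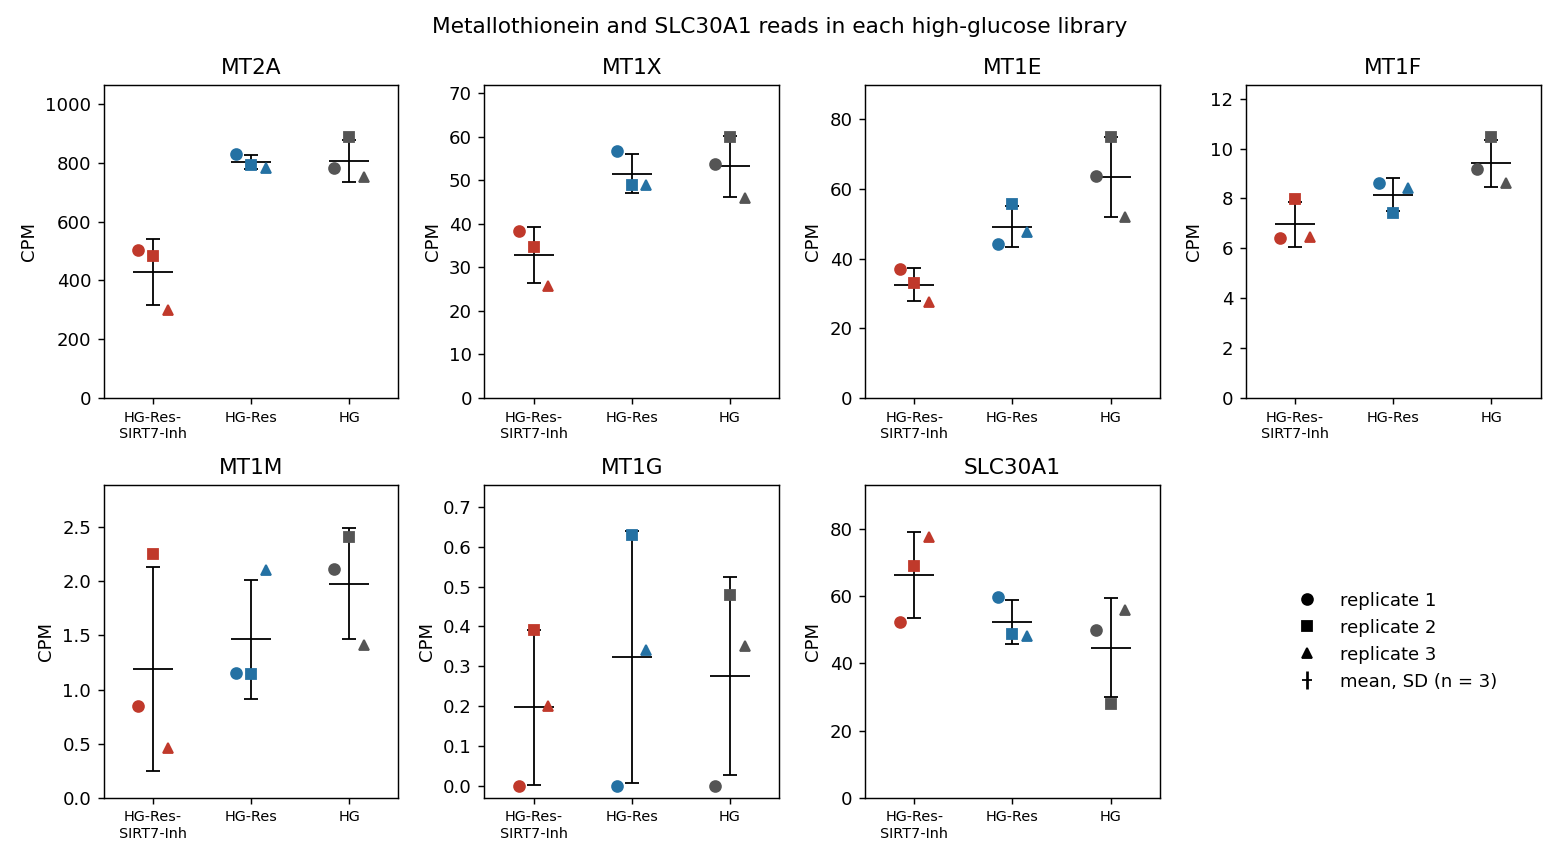
Reads of the 7 genes in CPM (vertical axes, each with its own scale) in the 3 high-glucose groups (horizontal axes); symbols are single libraries by replicate number, and black marks are the mean and SD of 3 libraries. MT2A, MT1X and MT1E in HG-Res-SIRT7-Inh lie below all libraries of HG-Res and HG, SLC30A1 is highest in HG-Res-SIRT7-Inh replicate 3 at 77.65 CPM, and MT1G is at 0 in replicate 1 of every group.

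MT2A, the main inducible metallothionein of most human cells, had 502.74, 483.82 and 300.05 CPM in the 3 HG-Res-SIRT7-Inh libraries, 830.13, 793.62 and 782.68 CPM in HG-Res, and 781.45, 887.0 and 751.38 CPM in HG. All 3 inhibitor libraries were below all 6 others, and HG-Res and HG overlapped. The mean was 429 ± 112 CPM in HG-Res-SIRT7-Inh, 802 ± 24.8 in HG-Res and 807 ± 71.2 in HG (SD, n = 3). MT2A fell by 0.94 on the log2 scale in HG-Res-SIRT7-Inh against HG-Res (SE 0.18, limma adjusted p = 0.0148), a ratio of means of 0.535. Against HG the fall was also 0.94 (SE 0.18, limma adjusted p = 0.00985). Of the 12854 tested genes, 152 had a lower change than MT2A against HG-Res and 157 against HG.

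The low replicate 3 of the inhibitor group widened the spread of MT2A. With that library and HG replicate 2 left out, MT2A changed by -0.70 against HG-Res (limma adjusted p = 6.65e-05) and by -0.63 against HG (limma adjusted p = 0.000165). Both libraries were picked from these same data, and both changes were smaller than in the main fit. Calls rose over all genes too: those passing as lower went from 538 to 1178 against HG-Res and from 836 to 1852 against HG. The call against HG-Res was lost when any HG-Res replicate was left out, with limma adjusted p = 0.0736, 0.0643 and 0.0626 without replicate 1, 2 or 3, at changes of -0.91 to -0.96. Against HG it was lost when HG-Res was kept out of the fit (limma adjusted p = 0.0542). In the authors' deposited table the q-values were 0.000114 against HG-Res and 0.00114 against HG, and over all alternatives the adjusted p ran from 6.65e-05 to 0.0736 and from 0.000165 to 0.0542.

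MT1X, a metal-inducible MT1 isoform, had 38.29, 34.61 and 25.68 CPM in HG-Res-SIRT7-Inh, 56.75, 48.98 and 48.86 CPM in HG-Res, and 53.73, 59.91 and 45.93 CPM in HG. As for MT2A, the inhibitor libraries lay below all others and replicate 3 was the lowest. It fell by 0.65 on the log2 scale against HG-Res (SE 0.16, limma adjusted p = 0.045) and by 0.69 against HG (SE 0.16, limma adjusted p = 0.0261). The first call is near the threshold: the limma adjusted p was above 0.05 in 8 of 17 alternatives against HG-Res, up to 0.172 without HG-Res replicate 1, with a lowest value of 0.00974. Leaving out HG-Res-SIRT7-Inh replicate 2, any HG-Res replicate, HG replicate 1 or HG replicate 3 was enough to lose it. Against HG it did so in 6 of 17, up to 0.0987 with the 2 groups alone and down to 0.0136, while the change stayed between -0.81 and -0.44. It was lost there without HG-Res-SIRT7-Inh replicate 2, HG-Res replicate 2 or 3, or HG replicate 1 or 2, and the change of -0.44, with both libraries that stood apart left out, passed (limma adjusted p = 0.0136).

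MT1E, another MT1 isoform, had 37.04, 32.88 and 27.53 CPM in HG-Res-SIRT7-Inh, 44.09, 55.65 and 47.7 CPM in HG-Res, and 63.67, 74.86 and 51.85 CPM in HG. The inhibitor libraries again lay below all others, while HG-Res lay partly below HG, with overlap. It fell by 0.94 on the log2 scale against HG (SE 0.16, limma adjusted p = 0.00699), and passed in all 17 alternatives, with adjusted p from 0.00031, the authors' deposited q-value, to 0.0374 in limma with the 2 groups alone. Against HG-Res the change was -0.59 ± 0.16 (SE), which missed the threshold (limma adjusted p = 0.0656). It passed there in 4 of 17 alternatives, namely the authors' deposited table (q = 0.0119) and limma without HG-Res-SIRT7-Inh replicate 1, without HG replicate 2 or without both libraries that stood apart (adjusted p = 0.039, 0.0453 and 0.024). Over all alternatives the adjusted p ranged from 0.0119 to 0.25. For MT1E the HG-Res mean lay between the others: 32.5 ± 4.77 CPM in HG-Res-SIRT7-Inh, 49.1 ± 5.91 in HG-Res and 63.5 ± 11.5 in HG (SD, n = 3).

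**Figure D2:**
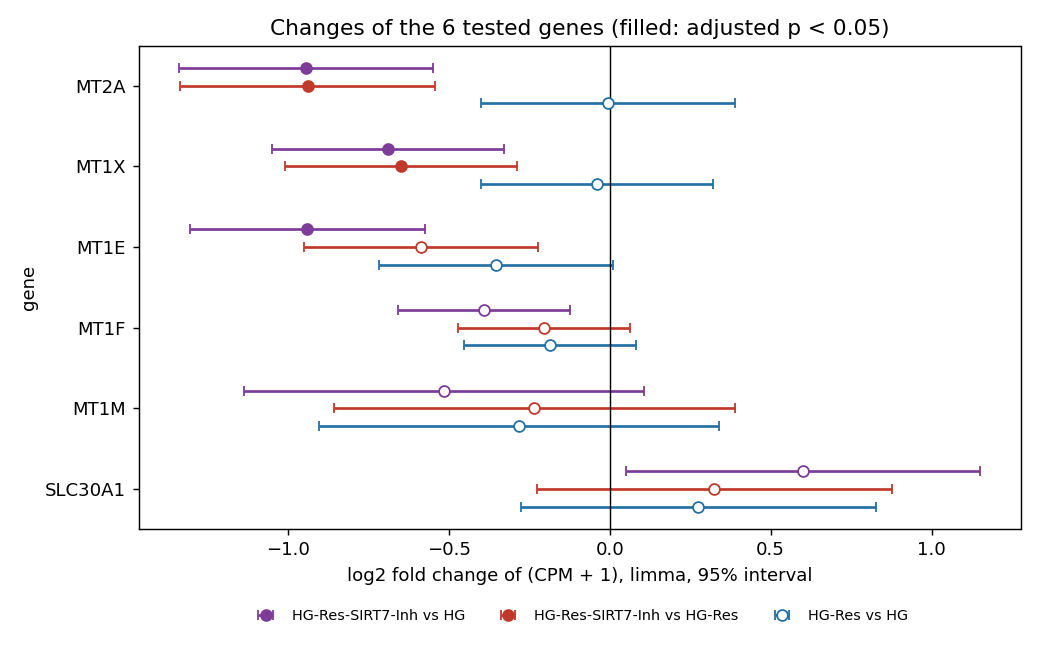
Log2 fold change of (CPM + 1) from limma (horizontal axis) for the 6 tested genes (vertical axis) in 3 comparisons, with 95% intervals; filled points passed an adjusted p of 0.05. MT2A, MT1X and MT1E have filled points between -0.94 and -0.65, the points of resveratrol alone are all open, and SLC30A1 is right of 0 in all 3 comparisons, with no filled point; its point for HG-Res against HG moves to -0.02 without HG replicate 2.

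MT1F, MT1M and MT1G, further MT1 isoforms, were covered by fewer reads. MT1F had 6.42, 7.99 and 6.47 CPM in HG-Res-SIRT7-Inh, 8.62, 7.4 and 8.43 CPM in HG-Res, and 9.18, 10.46 and 8.61 CPM in HG. The inhibitor libraries were below all HG libraries and overlapped with HG-Res. Its change was -0.39 ± 0.12 (SE) against HG and -0.20 ± 0.12 against HG-Res, and neither passed (limma adjusted p = 0.0667 and 0.298).

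MT1M had 0.85, 2.25 and 0.46 CPM in HG-Res-SIRT7-Inh, 1.15, 1.14 and 2.1 CPM in HG-Res, and 2.11, 2.41 and 1.41 CPM in HG. These stand for between 14 and 80 reads per library. The 3 groups overlapped, and the change against HG, -0.51 ± 0.28 (SE), did not pass (limma adjusted p = 0.254). Its size rested on single inhibitor libraries: it was -0.84 without replicate 2 (limma adjusted p = 0.0656) and -0.26 without replicate 3 (limma adjusted p = 0.519), or -0.16 with both libraries that stood apart left out (limma adjusted p = 0.699). With a pseudocount of 0.1 it was -0.91 (limma adjusted p = 0.233). Against HG-Res the change was -0.23 ± 0.28 (limma adjusted p = 0.588), which was -0.56 and 0.02 without the same replicates 2 and 3.

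MT1G had 0, 0.39 and 0.2 CPM in HG-Res-SIRT7-Inh, 0, 0.63 and 0.34 CPM in HG-Res, and 0, 0.48 and 0.35 CPM in HG. Replicate 1 held no read in any of these groups, while replicate 2 held 12, 20 and 16 reads and replicate 3 held 6, 11 and 11. A count of 0 allows up to 3 reads, or 0.0939 CPM in HG-Res-SIRT7-Inh replicate 1, 0.0954 in HG-Res replicate 1 and 0.0943 in HG replicate 1; these limits cover counting error only. The gene was left untested, and its values separated by replicate number in every group.

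Since reads may be split between paralogs, the 6 metallothioneins were also summed, as a description without a test. The sum was 585, 562 and 360 CPM in HG-Res-SIRT7-Inh, 941, 907 and 890 CPM in HG-Res, and 910, 1035 and 860 CPM in HG. MT2A supplied 83.3% to 88.2% of these reads in every library, so the sum mostly follows MT2A. The 5 MT1 genes without MT2A summed to 82.6, 78.1 and 60.3 CPM in HG-Res-SIRT7-Inh, 111, 114 and 107 CPM in HG-Res, and 129, 148 and 108 CPM in HG. Inhibitor libraries were lowest in both sums. The first sum does not change if reads are moved between these 6 genes, whereas the second changes if they are moved between MT2A and an MT1 gene. In bulk RNA, fewer cells of a kind and less RNA per cell cannot be told apart.

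SLC30A1, the exporter, had 52.25, 68.96 and 77.65 CPM in HG-Res-SIRT7-Inh, 59.77, 48.79 and 48.23 CPM in HG-Res, and 49.9, 27.95 and 56.0 CPM in HG. The groups overlapped in each pair, and the lowest value by far was HG replicate 2. The mean was 66.3 ± 12.9 CPM in HG-Res-SIRT7-Inh, 52.3 ± 6.51 in HG-Res and 44.6 ± 14.8 in HG (SD, n = 3). The change was 0.60 ± 0.25 (SE) against HG, with an unadjusted p of 0.0355 and a limma adjusted p of 0.148. Against HG-Res it was 0.33 ± 0.25 (limma adjusted p = 0.404), 0.20 without HG-Res-SIRT7-Inh replicate 3 (limma adjusted p = 0.691) and 0.48 without replicate 1 of that group (limma adjusted p = 0.184). Its intervals, 0.05 to 1.15 against HG and -0.23 to 0.88 against HG-Res, reach up to 2.22 and 1.84 times the HG and HG-Res levels. Without HG replicate 2 the change against HG was 0.30, with an interval of -0.10 to 0.70 (limma adjusted p = 0.378), and without that library and HG-Res-SIRT7-Inh replicate 3 it was 0.18 (limma adjusted p = 0.377), so its size depended on HG replicate 2. Over 17 alternatives the adjusted p against HG ran from 0.0721 to 0.378.

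The libraries with the most extreme metallothionein reads were also those with the most extreme SLC30A1 reads. HG-Res-SIRT7-Inh replicate 3 had the lowest metallothionein sum of the 9 libraries, 360 CPM, and the highest SLC30A1, 77.65 CPM. HG replicate 2 had the highest sum, 1035 CPM, and the lowest SLC30A1, 27.95 CPM. These are the same libraries that stood apart over all genes, and the part of that in these values was not tested. Within HG-Res, where the sums lay between 890 and 941 CPM, the library with the highest sum also had the highest SLC30A1, 59.77 CPM.

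**Figure D3:**
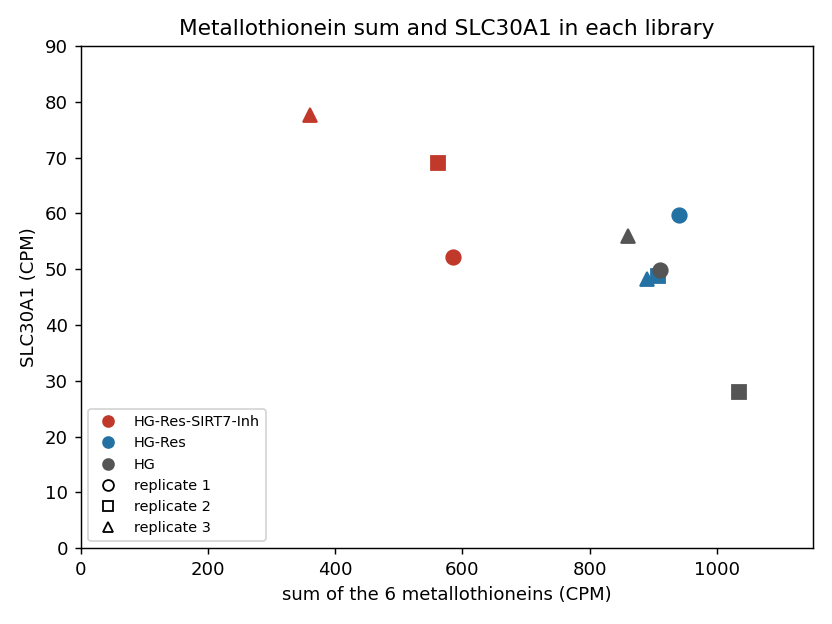
SLC30A1 in CPM (vertical axis) against the sum of 6 metallothioneins in CPM (horizontal axis) in the 9 high-glucose libraries; colours are groups and shapes are replicate numbers. HG-Res-SIRT7-Inh replicate 3 is at the upper left (360 and 77.65 CPM) and HG replicate 2 at the lower right (1035 and 27.95 CPM), and the HG-Res libraries lie close together.

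With the inhibitor added to resveratrol, 2 of the 6 tested genes passed and both were lower. The count was 3 with both libraries that stood apart left out, 0 without any 1 of the HG-Res replicates, and 1 without HG-Res-SIRT7-Inh replicate 2, HG replicate 1 or HG replicate 3. In the main fit over all genes tested, 4.19% (538 of 12854) passed as lower and 6.07% passed in either direction. The number of all genes passing as lower moved with the same settings. It was 1178 of 12763 with both libraries left out, and 231, 224 and 224 without HG-Res replicate 1, 2 or 3. Without HG-Res-SIRT7-Inh replicate 2, HG replicate 1 or HG replicate 3 it was 280, 354 and 436. By the authors' deposited q-values 3 of the 7 genes passed, against 5.65% of the 20263 listed genes. Only 16667 of the listed genes had a read in any of the 9 libraries. Shares of listed genes, here and below, are therefore lower than shares of genes with reads. The replicate values did not overlap in 3 of the 6 genes, against 33.7% of all genes tested. The median change of the 6 genes was -0.41, and that of all genes 0.04.

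Between HG-Res-SIRT7-Inh and HG, 3 of the 6 passed, all lower, where 6.5% of all tested genes passed as lower and 10.8% in either direction. By the authors' deposited q-values 3 of 7 passed, against 5.2% of listed genes. The replicate values did not overlap in 4 of the 6, against 28.1% of all genes tested. The median change was -0.60 for the 6 genes and 0.04 for all genes. Both comparisons share the HG-Res-SIRT7-Inh libraries and are not independent of each other. The metallothioneins may not be separate observations either, since reads could be split between paralogs. All 5 tested metallothioneins had a change below 0 in both comparisons, from -0.94 to -0.20 against HG-Res and from -0.94 to -0.39 against HG; that of MT1M against HG-Res was 0.02 without HG-Res-SIRT7-Inh replicate 3.

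**Figure D4:**
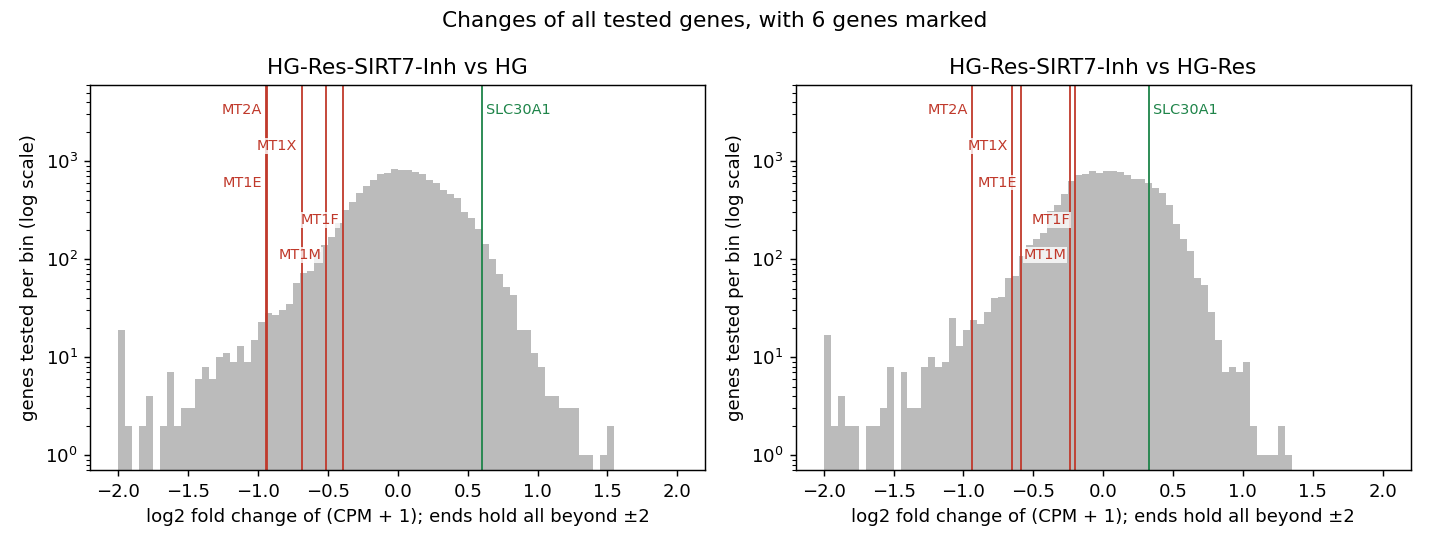
Number of tested genes (vertical axis, log scale) by log2 fold change of (CPM + 1) (horizontal axis) in HG-Res-SIRT7-Inh against HG and against HG-Res, with lines at the changes of 5 metallothioneins (red) and SLC30A1 (green). MT2A lies in the lower tail in both panels, with 157 and 152 genes below it, and SLC30A1 lies right of the centre, with 482 and 2354 genes above it.

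With resveratrol alone, none of the 6 tested genes passed the test. Between HG-Res and HG, 0 of 6 genes passed in limma, 0 had an unadjusted p under 0.05 (10.7% of all tested genes did), and 0 of 7 had an authors' deposited q-value under 0.05. Among all genes tested 0.708% passed in limma, and among all listed genes 5.38% did by the authors' deposited q-values. The limma share depends on the libraries in the fit. With the 2 groups alone, 318 genes passed as higher and 278 as lower, of 12854. With both libraries that stood apart left out, 1445 passed as higher and 1293 as lower, of 12763. In both fits 0 of the 6 genes passed. Replicate values overlapped in all 6 genes, whereas they did not overlap in 29.9% of all tested genes. MT2A had a change of -0.00481 ± 0.18 (SE), with a 95% interval of -0.40 to 0.39, equal to 0.758 to 1.31 times the HG level, so smaller changes in either direction remain possible. That interval includes the spread of the inhibitor group: it was -0.16 to 0.15 with HG-Res-SIRT7-Inh replicate 3 left out, and with the 2 groups alone -0.17 to 0.17. MT1E had a change of -0.35 ± 0.16 (SE, unadjusted p = 0.0563, limma adjusted p = 0.493), which was -0.23 without HG replicate 2 (limma adjusted p = 0.579). MT1M had a change of -0.28 ± 0.28 (limma adjusted p = 0.817), which was -0.17 without that library (limma adjusted p = 0.804). SLC30A1 had a change of 0.28 ± 0.25 (limma adjusted p = 0.787), which was -0.02 without HG replicate 2 (limma adjusted p = 0.961).

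The genes outside the set whose pattern over the 9 libraries was most like that of the 5 tested metallothioneins were sought among 11986 genes with a mean of at least 1 CPM. Likeness was Pearson's r with the mean of their standardised log2(CPM + 1) values, given as a description. The closest was ENSG00000102312, with r of 0.985 over 9 libraries and 0.945 over values centred within group, and of 0.968 over the 7 libraries that did not stand apart. It had 6.51, 7.42 and 4.03 CPM in HG-Res-SIRT7-Inh, 9.13, 8.38 and 9.68 CPM in HG-Res, and 11.92, 12.24 and 10.03 CPM in HG. ENSG00000136933 followed, with r of 0.984 and 0.938, and the files name neither gene. In both, the 2 libraries that stood apart over all genes were again the lowest and the highest.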

How the data were processed

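Poly(A)-selected RNA of 12 libraries was sequenced as 150 bp pairs, per the labels' protocols. Per the submitters' processing notes, Trimmomatic was used and the build was rn6; no aligner, counter, annotation or test is named in the sources used here. The deposited columns called TPM hold CPM: low values of each library are whole multiples of 1 step, between 0.0302 and 0.033 CPM, within the rounding of 0.005 CPM, and columns of the full tables share 1 total. That step gave the depth; rounding leaves reads approximate, so no count model was run. The authors' deposited log2 fold changes, p-values and q-values are quoted as theirs.

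CPM values were fitted as log2(CPM + 1) with limma 3.58.1 in R 4.3.3: group means of 9 high-glucose libraries in 1 fit, empirical Bayes with an intensity trend, threshold 0.05, 95% intervals unadjusted. The fit was also run on simulated data, with independent values and 1 spread per gene for all 9 libraries. That run cannot show how calls hold where groups differ in spread, as they do here. P-values measure the spread between samples labelled biological replicates; replicates differed by more than counting noise on average (mean chi-square 5.36 to 176). Members and lists were chosen with earlier results of these data known; lists of zinc, copper, iron and glucocorticoid genes and cell type markers, set by symbol, were not analysed here, since files name no gene. All 7 members are named, and the pattern search prints 2 identifiers where no names exist. Deviations from group means correlated at -0.547 to 0.636 between same-numbered libraries and at -0.724 to 0.777 between differently numbered ones. Replicate numbers were therefore not taken to pair samples, although MT1G did separate by replicate number. Promoter sequences are from RefSeq, GRCr8.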

Additional observations from a re-analysis of the deposited data

How the results depend on the processing

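The number of called genes and the log2 changes of the 6 tested genes were set beside 17 alternatives, 16 of them refits and 1 the authors' deposited table; sums, overlaps, pattern likeness and promoter matches were not part of this. The count of called genes was 2 (inhibitor group against HG-Res), 3 (inhibitor group against HG) and 0 (HG-Res against HG). With the 2 groups alone it was 1, 1 and 0, and without a filter on low values 1, 3 and 0; the cause was not tested. Leaving out 1 library gave 0 to 3, 2 to 3 and 0 to 0. The number of calls over all genes also moved with these settings. With the replicate number as a block the counts were 2, 3 and 0, and the block changed no call. The authors' deposited q-values gave 3, 3 and 0.

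All direction changes lay in log2 changes that had not passed the test. For HG-Res against HG, MT2A (-0.00481) was at 0.0135 under median-of-ratios scaling and 0.00348 in the authors' deposited table. With both libraries that stood apart left out it was at 0.0655, MT1X (-0.04) at 0.0483 and SLC30A1 (0.28) at -0.0231; MT1M against HG-Res (-0.23) was then at 0.0159 in the inhibitor group. Leaving out 1 library, MT2A ran from -0.0541 to 0.0655, MT1X from -0.14 to 0.0483 and SLC30A1 from -0.0231 to 0.466, each crossing 0 without HG replicate 2 (MT2A also without HG-Res replicate 2 or 3). MT1M ran from -0.561 to 0.0159, above 0 without the inhibitor group's replicate 3. A count model on recovered reads was not run. HG against Ctrl gave no value for these genes.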

Other observations

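MT1G was absent from replicate 1 of all 3 high-glucose groups and present in replicates 2 and 3 of each, a pattern noticed in its values and then counted. Of the 20263 listed genes, 1 was at 0 in the 3 libraries numbered 1 and at 0.15 CPM or more in the 6 others, and that gene was MT1G. The same pattern for the libraries numbered 2 or 3 was met by 0 genes. At a minimum of 0.03 CPM, about 1 read, 3 genes showed it for number 1, 1 for number 2 and 2 for number 3. The labels do not say what the replicate number stands for.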
